A study of Mus musculus with 6 samples.

Results

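Receptors through which myeloid cells sense chemokines and other chemoattractants were examined in leukemia-initiating cells (LICs) with and without the acid-sensing ion channel gene Asic3. The set was chosen by name, with earlier results of these data known, and held 9 genes of the 27179 in the deposited table: the chemokine receptors Cxcr4, Cxcr2, Ccr1, Ccr2 and Cx3cr1, the chemokine receptor-like gene Ccrl2, the formyl peptide receptors Fpr1 and Fpr2, and the leukotriene B4 receptor Ltb4r1. All 9 had values above 0, and 8 of them were among the 12037 genes with a mean of at least 1 RPKM (a read count divided by the length of the gene and the size of the library) that were tested. Cxcr2 fell under that limit and is described by its values.

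The cells were YFP+Mac-1+c-Kit+ LICs sorted from bone marrow (BM) of C57BL/6 mice labelled 8 weeks old. In this model of acute myeloid leukemia (AML), Lin- fetal liver cells received a retrovirus carrying the MLL-AF9 fusion gene and YFP and were transplanted into lethally irradiated C57BL/6 mice, so both groups carry MLL-AF9 under a viral promoter. Total RNA gave 6 libraries, of which 3 carry the label WT and 3 the label Asic3-/- (Asic3-null). The labels do not say whether each library came from its own mouse or from pooled cells, so the p values measure only the spread between these libraries, which may be technical.

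Chemokine and chemoattractant receptors are G protein-coupled receptors that span the membrane repeatedly and mostly signal through the inhibitory G protein Gi to direct cell migration. CXCR4 binds CXCL12 made by BM stromal cells and holds hematopoietic stem cells and many AML cells in the marrow. CXCR2, CCR1, CCR2, the formyl peptide receptors and BLT1, the product of Ltb4r1, draw mature neutrophils and monocytes toward sites of inflammation.

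The library size recovered from the RPKM values ran from 1947168 to 2381861 reads, so that in a 2-kb gene each single read counted for 0.21 to 0.257 RPKM. The targeted gene went against the labels: Asic3 had 9.12, 4.11 and 6.58 RPKM in Asic3-null-labelled libraries 1, 2 and 3, against 1.22, 1.85 and 0.435 RPKM in WT-labelled libraries 1, 2 and 3 (adjusted p = 0.0260 from limma). Which part of Asic3 was deleted is not given by the labels, and a value per gene cannot show it. Every direction given here is by label and would turn if the labels of the groups had been exchanged, which was not tested. Of the sorted markers, Itgam, which encodes the Mac-1 chain CD11b, was present in every library at 12.3 to 16.9 RPKM in Asic3-null-labelled libraries and 55.1 to 89.5 RPKM in WT-labelled ones, and was lower in the former (log2 fold change -2.35, adjusted p from limma 0.000720). Kit had 14.4 to 20.4 and 8.97 to 15.3 RPKM, with overlapping groups. The groups also differed in sex-linked transcripts. Xist had 46.5 to 71.9 RPKM in Asic3-null-labelled libraries and at most 0.0573 RPKM in WT-labelled ones, while 4 Y-linked genes summed to 0 and to 81.4 to 118 RPKM. Sex of the cells and genotype label therefore cannot be told apart in any difference given here.

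Each of the 9 receptors had a lower mean in Asic3-null-labelled libraries, and 4 of the 8 tested were called lower at an adjusted p under 0.05 (limma on log2(RPKM + 1), Benjamini-Hochberg adjustment over all tested genes): Fpr2, Ccr2, Ccr1 and Ltb4r1. Over all tested genes 3.35% were called in either direction and 2.82% were called lower. The groups did not overlap for 5 of the 8 tested receptors, all lower in Asic3-null-labelled libraries, where 11.4% of all tested genes showed that pattern. The median log2 fold change was -1.16 over the 8 receptors and 0.03 over all tested genes. Fpr1 reached the limit for testing only through the WT-labelled libraries, where it is high, so it had to differ. Without it 4 of 7 receptors did not overlap and the median was -0.96, the value of Ltb4r1, and these counts and medians describe the set without supporting its direction. For the receptors whose groups did not overlap, the exact permutation test gave a two-sided p of 0.1, below which 3 libraries a group cannot go. In bulk RNA, fewer cells of a type and less receptor RNA per cell cannot be told apart.

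**Figure D1:**
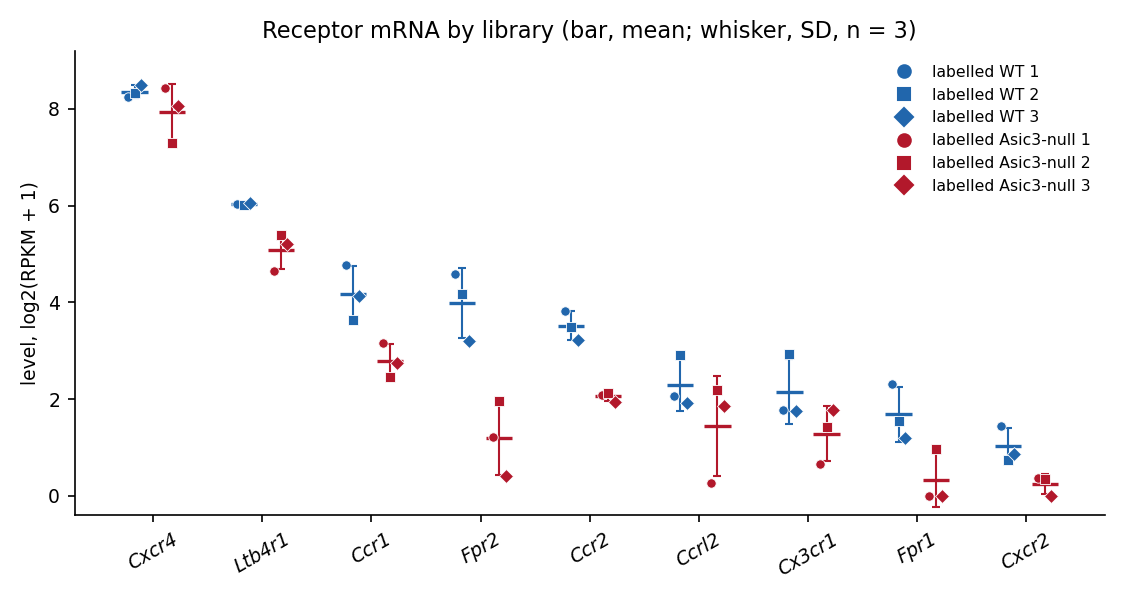
Level of each receptor on the log2(RPKM + 1) axis, with 1 point per library, bars for the mean and whiskers for the SD of 3 libraries. Cxcr4 stands highest in every library and its groups overlap, whereas the groups of Ltb4r1, Ccr1, Fpr2, Ccr2, Fpr1 and Cxcr2 do not.

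Cxcr4 was by far the most abundant receptor of the set and was not called. It had 344, 157 and 265 RPKM in Asic3-null-labelled libraries 1, 2 and 3 and 300.2, 319 and 360 RPKM in WT-labelled libraries 1, 2 and 3. The values overlapped, since the library labelled Asic3-null 1 lay above 2 of the 3 labelled WT while the library labelled Asic3-null 2 was the lowest of all 6. Mean levels were 255 ± 93.7 and 327 ± 30.8 RPKM (n = 3 each, SD), giving a log2 fold change of -0.42 with a 95% interval from -0.99 to 0.14 (adjusted p = 0.445 from limma, exact permutation p = 0.3). Without the library labelled Asic3-null 2 the log2 fold change was -0.11, and without Asic3-null 1 it was -0.67, and neither fit called the gene. Between 678 and 1548 recovered reads per library lay behind these values, so counting error was small beside the spread between libraries.

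Cxcr4 lies on chromosome 1 of GRCm38 (chr1:128588199-128592299, minus strand). The 250 bases before its RefSeq start (GRCm38.p6, chr1:128592300-128592549, minus strand) are shown because they hold the most CpG dinucleotides of the 9 receptors. They hold 61.2% G and C and 19 CpG dinucleotides, 0.838 of the number expected from the base composition. The windows of the other 8 receptors held 0 to 7 CpG, and the median over all windows was 6 CpG and 52.4% G and C. None of the 13 motifs searched was found, so no base is in capitals.

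Cxcr4: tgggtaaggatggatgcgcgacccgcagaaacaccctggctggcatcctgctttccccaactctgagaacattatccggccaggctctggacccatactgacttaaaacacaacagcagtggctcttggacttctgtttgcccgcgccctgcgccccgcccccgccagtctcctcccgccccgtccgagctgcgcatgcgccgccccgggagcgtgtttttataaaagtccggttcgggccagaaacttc

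The inflammatory chemokine receptors Ccr1 and Ccr2 were both called lower in Asic3-null-labelled libraries. CCR2 binds CCL2 and brings classical monocytes out of the marrow. Ccr2 had 3.25, 3.39 and 2.85 RPKM in Asic3-null-labelled libraries 1, 2 and 3 and 13.1, 10.3 and 8.36 RPKM in WT-labelled libraries 1, 2 and 3. The 3 libraries labelled Asic3-null lay close together, and the lowest labelled WT was more than 2 times the highest of them. Mean levels were 3.16 ± 0.282 and 10.6 ± 2.39 RPKM (SD, n = 3 each), 3.35-fold lower, with a log2 fold change of -1.46 (SE 0.21, adjusted p = 0.00771 from limma). Ccr2 was called in all 15 alternative fits, those that leave out any 1 library included.

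CCR1 binds CCL3, CCL6, CCL9 and related chemokines and is carried by neutrophils, monocytes and their precursors. Ccr1 had 7.93, 4.45 and 5.72 RPKM in Asic3-null-labelled libraries 1, 2 and 3 and 26.4, 11.4 and 16.4 RPKM in WT-labelled libraries 1, 2 and 3. No library labelled Asic3-null reached the lowest labelled WT, and the library labelled WT 1 was well above the others of its group. The means of 6.03 ± 1.76 and 18.1 ± 7.61 RPKM (SD, n = 3 each) differed 3.00-fold, a log2 fold change of -1.39 (SE 0.30, adjusted p = 0.0437 from limma). This call was close to the threshold. It was lost without each of the libraries labelled Asic3-null 1, 2 and 3, WT 1 and WT 3, with adjusted p from limma of 0.0566, 0.134, 0.135, 0.121 and 0.106, and was kept without WT 2. It was also lost with no filter on low values (adjusted p = 0.0952 from limma), without the intensity trend (0.0749) and on untransformed RPKM (0.174).

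Cxcr2, the receptor for neutrophil-attracting chemokines such as CXCL1 and CXCL2, was close to the limit of detection. It had 0.284, 0.276 and 0 RPKM in Asic3-null-labelled libraries 1, 2 and 3 and 1.72, 0.675 and 0.833 RPKM in WT-labelled libraries 1, 2 and 3. The groups did not overlap, but the values rest on 4 reads in one group and 21 in the other. The read ratio, WT over Asic3-null with library size accounted for, was 5.76 with a 95% counting interval from 1.94 to 23.1. With no filter on low values the log2 fold change was -0.78 and the adjusted p from limma 0.168.

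Cx3cr1, the fractalkine receptor of monocytes and tissue macrophages, had 0.579, 1.69 and 2.40 RPKM in Asic3-null-labelled libraries 1, 2 and 3 and 2.42, 6.61 and 2.38 RPKM in WT-labelled libraries 1, 2 and 3. Only the library labelled WT 2 was clearly above the rest, and the groups overlapped at 2.38 and 2.40 RPKM. The log2 fold change was -0.87 with a 95% interval from -1.80 to 0.06 (adjusted p = 0.341 from limma, exact permutation p = 0.2). It was -0.48 without the library labelled WT 2 and -0.56 without Asic3-null 1, and -1.26 with a pseudocount of 0.1, and none of these fits called the gene. The gene overlaps the non-coding RNA gene Gm33858 in RefSeq and the library kit does not mark strand, so reads of the 2 genes cannot be told apart.

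Ccrl2 encodes an atypical receptor that binds chemerin without the usual G protein signalling. It had 0.205, 3.58 and 2.62 RPKM in Asic3-null-labelled libraries 1, 2 and 3 and 3.16, 6.57 and 2.80 RPKM in WT-labelled libraries 1, 2 and 3. The library labelled Asic3-null 1 held a single read (1, against 13 to 27 in the other libraries), and the remaining values overlapped. The log2 fold change was -0.86 with a 95% interval from -1.99 to 0.27 (adjusted p = 0.439 from limma, exact permutation p = 0.4), and it was -0.27 without the library labelled Asic3-null 1, -0.55 without WT 2 and -1.46 with a pseudocount of 0.1, again with no call.

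Among the receptors for other chemoattractants, Fpr2 fell most of the set. FPR2 senses formylated peptides of bacteria and mitochondria as well as lipid and protein ligands. Fpr2 had 1.33, 2.92 and 0.329 RPKM in Asic3-null-labelled libraries 1, 2 and 3 and 23.1, 17.04 and 8.15 RPKM in WT-labelled libraries 1, 2 and 3. The lowest library labelled WT was above every library labelled Asic3-null, although values within each group varied several-fold. Mean levels were 1.53 ± 1.30 and 16.1 ± 7.53 RPKM (SD, n = 3 each), 10.6-fold lower, with a log2 fold change of -2.79 (SE 0.45, adjusted p = 0.0123 from limma). The reads behind them were 4, 9 and 1 against 63, 43 and 25. Without the library labelled WT 1 the call was lost at an adjusted p of 0.0563 from limma, and without any other library it was kept. On untransformed RPKM the adjusted p from limma was 0.0932.

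Fpr1, the high-affinity formyl peptide receptor of neutrophils, had 0, 0.952 and 0 RPKM in Asic3-null-labelled libraries 1, 2 and 3 and 3.95, 1.94 and 1.28 RPKM in WT-labelled libraries 1, 2 and 3. The groups did not overlap. With 3 reads against 20, the read ratio, WT over Asic3-null, was 7.32 with a 95% counting interval from 2.17 to 38.5. The log2 fold change was -1.36 (SE 0.41) and the gene was not called (adjusted p = 0.139 from limma). With a pseudocount of 0.1 the log2 fold change was -3.36, and with limma-voom on the recovered reads -2.90 (adjusted p = 0.0761), so its size depended on the scale.

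Ltb4r1 was the receptor with the second highest level. BLT1, its product, is the high-affinity receptor for leukotriene B4, a lipid that attracts neutrophils. Ltb4r1 had 23.9, 40.7 and 35.8 RPKM in Asic3-null-labelled libraries 1, 2 and 3 and 64.6, 63.1 and 65.8 RPKM in WT-labelled libraries 1, 2 and 3. The libraries labelled WT were nearly equal, and each was above all 3 labelled Asic3-null. Mean levels were 33.5 ± 8.65 and 64.5 ± 1.38 RPKM (SD, n = 3 each), 1.93-fold lower, with a log2 fold change of -0.96 (SE 0.19, adjusted p = 0.0307 from limma). Leaving out the library labelled Asic3-null 3, WT 1, WT 2 or WT 3 gave an adjusted p from limma of 0.0810, 0.101, 0.0881 and 0.0877, above the threshold, with log2 fold changes from -1.02 to -0.94. The call was also lost with no filter on low values (adjusted p = 0.0589 from limma), without the intensity trend (0.0688) and with the replicate numbers as a block (0.0592). The nearby gene for the low-affinity leukotriene B4 receptor, Ltb4r2, had only 17 reads over the 6 libraries.

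**Figure D2:**
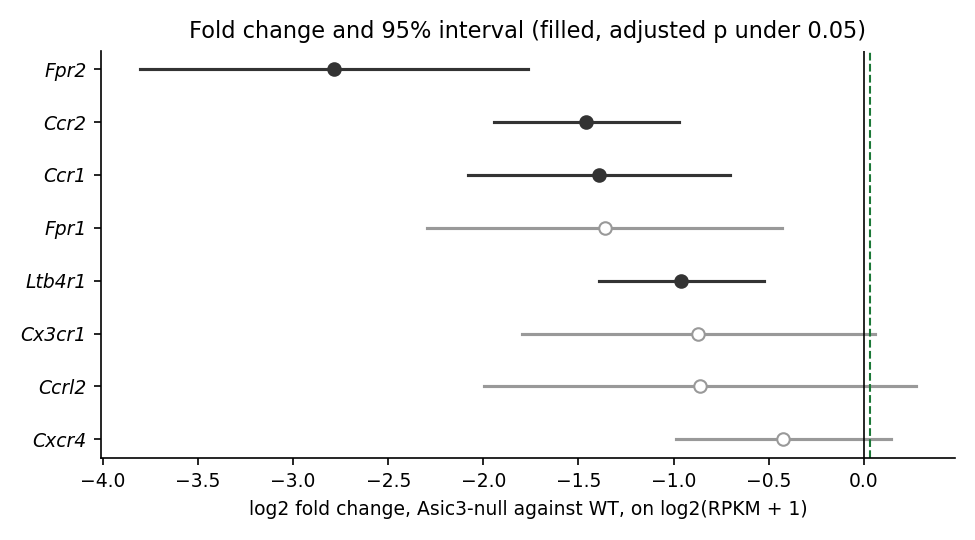
Log2 fold change of the 8 tested receptors, libraries labelled Asic3-null against WT, with its 95% interval from limma. Filled points mark the 4 called receptors, the dashed line the median of all tested genes at 0.03, and the intervals of Cxcr4, Cx3cr1 and Ccrl2 cross 0.

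The number of receptors called depended on single libraries. It was 1 without the library labelled WT 1, where Ccr2 alone was called, and 2 without Asic3-null 3 or WT 3, where Ccr2 and Fpr2 were called. It was 3 without Asic3-null 1, Asic3-null 2 or WT 2. The fold change of each tested receptor was below 0 in every alternative fit in which that receptor was tested.

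The upstream windows of the 4 called receptors are given because these genes moved in the same direction. Each shows letters of a hematopoietic factor's motif, but no motif is in all 4. Of the receptors not called, Cx3cr1 and Ccrl2 also hold matches, and Cxcr4, Cxcr2 and Fpr1 hold none. The share of all genes with any motif was not counted, so the matches do not set the called receptors apart. The windows shown end at the base before the RefSeq start (GRCm38.p6). Fpr2 is chr17:17887574-17887823 on the plus strand, Ccr2 chr9:124101933-124102182 on the plus strand, Ccr1 chr9:123968693-123968942 on the minus strand and Ltb4r1 chr14:55765712-55765961 on the plus strand. The Ccr2 window lies inside the gene's outermost RefSeq span, because the start it precedes lies downstream of the outermost start. Capitals mark GATA and STAT letters in Fpr2, GATA letters in Ccr2, NF-kB and RUNX letters in Ccr1, and RUNX letters at both ends of Ltb4r1.

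Fpr2: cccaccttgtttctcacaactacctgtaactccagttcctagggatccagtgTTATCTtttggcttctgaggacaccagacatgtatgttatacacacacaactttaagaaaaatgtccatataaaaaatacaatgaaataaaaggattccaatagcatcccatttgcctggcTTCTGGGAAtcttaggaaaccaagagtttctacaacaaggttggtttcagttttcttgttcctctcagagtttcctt
Ccr2: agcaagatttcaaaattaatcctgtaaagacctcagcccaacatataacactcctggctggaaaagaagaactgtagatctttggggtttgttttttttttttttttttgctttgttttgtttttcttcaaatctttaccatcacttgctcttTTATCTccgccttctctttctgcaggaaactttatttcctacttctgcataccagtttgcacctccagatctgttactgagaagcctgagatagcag
Ccr1: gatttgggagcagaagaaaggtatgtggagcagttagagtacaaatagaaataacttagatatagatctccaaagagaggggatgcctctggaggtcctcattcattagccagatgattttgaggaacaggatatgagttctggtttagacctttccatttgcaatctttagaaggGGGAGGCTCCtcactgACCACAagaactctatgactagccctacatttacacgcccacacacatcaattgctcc
Ltb4r1: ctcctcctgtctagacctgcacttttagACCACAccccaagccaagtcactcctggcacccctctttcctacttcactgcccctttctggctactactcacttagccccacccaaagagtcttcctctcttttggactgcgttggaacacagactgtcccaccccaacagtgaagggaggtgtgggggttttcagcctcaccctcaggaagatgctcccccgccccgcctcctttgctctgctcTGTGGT

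Motifs of 13 kinds were searched on both strands of the windows of 27025 genes. The GATA factors' letters AGATAA were present for 3 of the 9 receptors, Fpr2, Ccr2 and Ccrl2, and for 11.4% of all genes. The RUNX letters TGTGGT were present for Ccr1, Cx3cr1 and Ltb4r1 and for 15.9% of all genes. On the gene strand alone, RUNX letters remained for 1 receptor (8.45% of all genes) and GATA letters for 0 (6.04%). The STAT letters TTCNNNGAA were found for Fpr2 and for 8.13% of all genes, and NF-kB letters for Ccr1 and Ccrl2 and for 19.7%. Ccrl2 also held the HIF letters ACGTG, present for 18.5% of all genes, and the shorter CREB form TGACG, present for 19.8%. On the gene strand alone, NF-kB letters remained for 1 receptor (11.1% of all genes) and HIF letters for 0 (12.8%). The remaining motifs were in no window of the 9 receptors. Of these, the C/EBP letters TTGCNNAA were present for 10.8% of all genes and the PU.1 letters GAGGAAGT for 2.79%. The MEIS letters TGACAG were present for 18.0% and the HOX letters TTTATGG for 2.83%. The full CREB letters TGACGTCA, which contain the shorter form, were present for 1.77% of all genes. The E-box of MYC, CACGTG, which contains the HIF letters, was present for 6.86% and the AP-1 letters TGANTCA for 7.82%. Such matches describe letters only and are not sites shown to be bound.

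Cxcr4 was also set against the other receptors within each library. On the log2(RPKM + 1) scale Cxcr4 exceeded the mean of the other 8 by 6.88, 5.19 and 6.31 in Asic3-null-labelled libraries 1, 2 and 3 and by 4.88, 5.14 and 5.70 in WT-labelled libraries 1, 2 and 3. These differences averaged 0.89 more in Asic3-null-labelled libraries, but Asic3-null 2 lay among the libraries labelled WT. With a pseudocount of 0.1 in place of 1 the average was 1.58. The gap between Cxcr4 and Fpr2 was wider by 2.36 and that between Cxcr4 and Ccr1 by 0.97, in both cases without overlap, and the gaps to the other 6 receptors overlapped. In RPKM, the 8 other receptors together summed to 37.5, 58.0 and 49.7 in Asic3-null-labelled libraries and 138, 118 and 106 in WT-labelled ones. Cxcr4 made up 90.2, 73.0 and 84.2% of the whole set's sum in the former and 68.4, 73.1 and 77.3% in the latter. These are descriptions of the same values and were given no test.

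**Figure D3:**
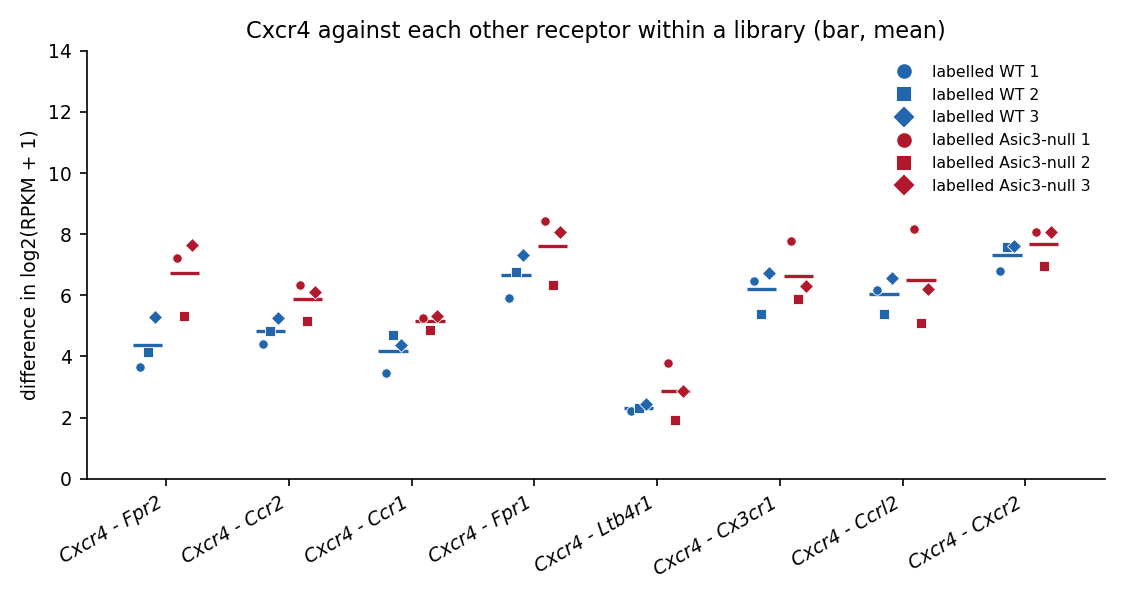
Difference in log2(RPKM + 1) between Cxcr4 and each other receptor within a library, with 1 point per library and bars for the mean of 3. The pairs with Fpr2 and Ccr1 separate the groups, by 2.36 and 0.97 on average, and the other pairs overlap.

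The order of levels in RPKM was Cxcr4, Ltb4r1, Ccr1, Ccr2, Ccrl2, Cx3cr1, Fpr2, Fpr1 and Cxcr2 in Asic3-null-labelled libraries. Only the first 3 steps of that order separated neighbours without overlap. In the libraries labelled WT, Fpr2 stood between Ccr1 and Ccr2, and the steps without overlap were Cxcr4 to Ltb4r1, Ltb4r1 to Ccr1 and Ccr2 to Ccrl2.

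Several of the receptor genes sit beside relatives that were hardly read. Ccr1 (chr9:123962126-123968692) and Ccr2 (chr9:124101918-124109140) belong to a cluster of chemokine receptor genes on chromosome 9. Over all 6 libraries Ccr1 had 450 reads and Ccr2 322, while Ccr9 had 7, Cxcr6 8, Xcr1 8, Ccr1l1 2 and Ccr3 0. Fpr1 and Fpr2 lie 3.885 kb apart on chromosome 17 on opposite strands (chr17:17876471-17883939 and chr17:17887824-17893952), and the related Fpr3 and Fpr-rs4 had 0 reads. Cxcr1, 30.5 kb from Cxcr2 on chromosome 1, and Ccr8, 23.8 kb from Cx3cr1 on chromosome 9, also had 0 reads. How reads that match several relatives were counted is not given in the sources used here, so the split within the Fpr family and between Ccr1 and Ccr1l1 is uncertain.

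**Figure D4:**
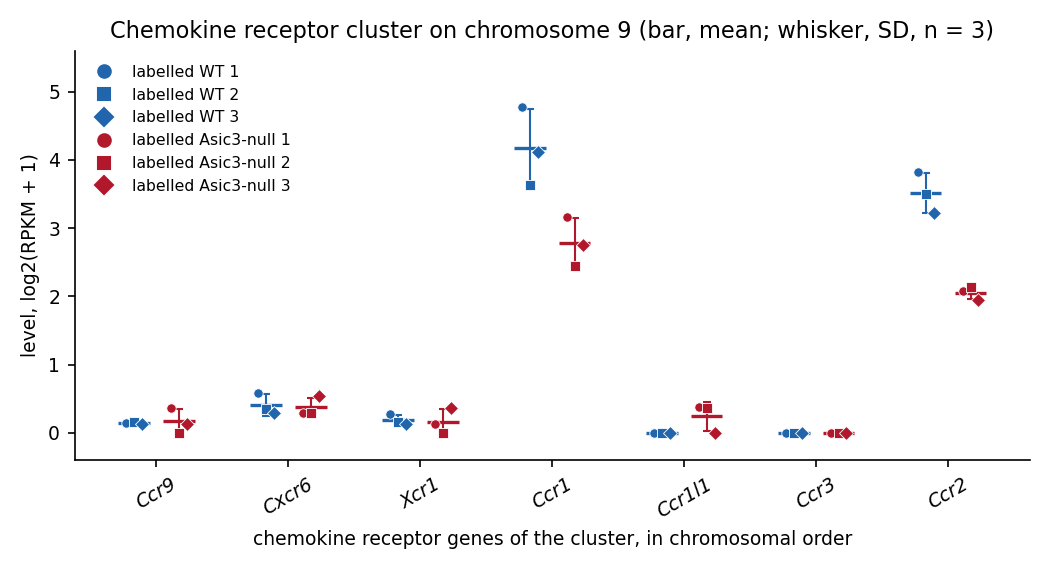
Levels of 7 chemokine receptor genes of the chromosome 9 cluster in chromosomal order on the log2(RPKM + 1) axis, with 1 point per library, bars for the mean and whiskers for the SD of 3 libraries. Ccr1 and Ccr2 stand above 5 relatives that each had 8 or fewer reads over all 6 libraries.

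The remaining chemokine receptors gave little signal. Of 18 listed, 8 had 0 reads (Cxcr1, Ccr3, Ccr4, Ccr6, Ccr8, Ccr10, Ackr1 and Ackr3) and 0 reached the limit for testing. Over all 6 libraries the highest means were those of Cxcr6, at 0.300 and 0.332 RPKM in Asic3-null-labelled and WT-labelled libraries, and Ackr4, at 0.136 and 0.142 RPKM. The scavenger receptor for CXCL12, Ackr3, was thus not detectable at this depth, where a count of 0 allows up to 3 reads a library.

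Of 23 other chemoattractant receptors listed, 22 were matched in the table and 9 were tested, of which 2 were called lower and 0 higher, with a median log2 fold change of -0.49. C5ar1, the receptor for complement C5a, had 0.336, 0.653 and 0.166 RPKM in Asic3-null-labelled libraries against 3.15, 8.59 and 5.42 RPKM in WT-labelled ones (log2 fold change -2.21, adjusted p = 0.0107 from limma). Like Fpr1, C5ar1 reached the limit for testing only through the WT-labelled libraries, so under that filter it had to differ. With no filter on low values its adjusted p from limma was 0.0260. Ptafr, the receptor for platelet-activating factor, had means of 5.38 ± 0.864 and 10.8 ± 1.09 RPKM (SD, n = 3 each, log2 fold change -0.89, adjusted p = 0.0408 from limma). The call of Ptafr was lost with no filter on low values (adjusted p = 0.0857 from limma). The sphingosine 1-phosphate receptor gene S1pr4 was the most abundant of these, at 14.96 ± 1.92 and 21.6 ± 4.49 RPKM, and was not called (adjusted p = 0.243 from limma). S1pr1, another receptor for that lipid, had 0 reads.

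Of the ligands, 8 of 37 were tested, 2 were called lower and 0 higher, and the median log2 fold change was 0.18. Ccl2, which encodes the main CCR2 ligand, had 2.68, 2.60 and 4.23 RPKM in Asic3-null-labelled libraries and 26.6, 41.4 and 21.0 RPKM in WT-labelled ones (log2 fold change -2.84, adjusted p = 0.000847 from limma). Ccl6, a CCR1 ligand, had 17.7, 17.2 and 13.3 RPKM against 111, 76.5 and 69.1 RPKM (log2 fold change -2.32, adjusted p = 0.000631 from limma). In both genes every library labelled WT was far above those labelled Asic3-null. Other CCR1 ligands were abundant and not called. Ccl3, which encodes MIP-1 alpha, had the highest level of the list at 430 ± 158 and 313 ± 80.2 RPKM (n = 3 each, SD, adjusted p = 0.493 from limma), and Ccl9 had 97.7 ± 21.0 and 101 ± 14.8 RPKM (adjusted p = 0.901). Mif, whose product also binds CXCR2 and CXCR4, had 164 ± 34.7 and 106 ± 21.6 RPKM (adjusted p = 0.153 from limma). Cxcl12, the CXCR4 ligand of stromal cells, had at most 0.143 RPKM in any library.

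**Figure D5:**
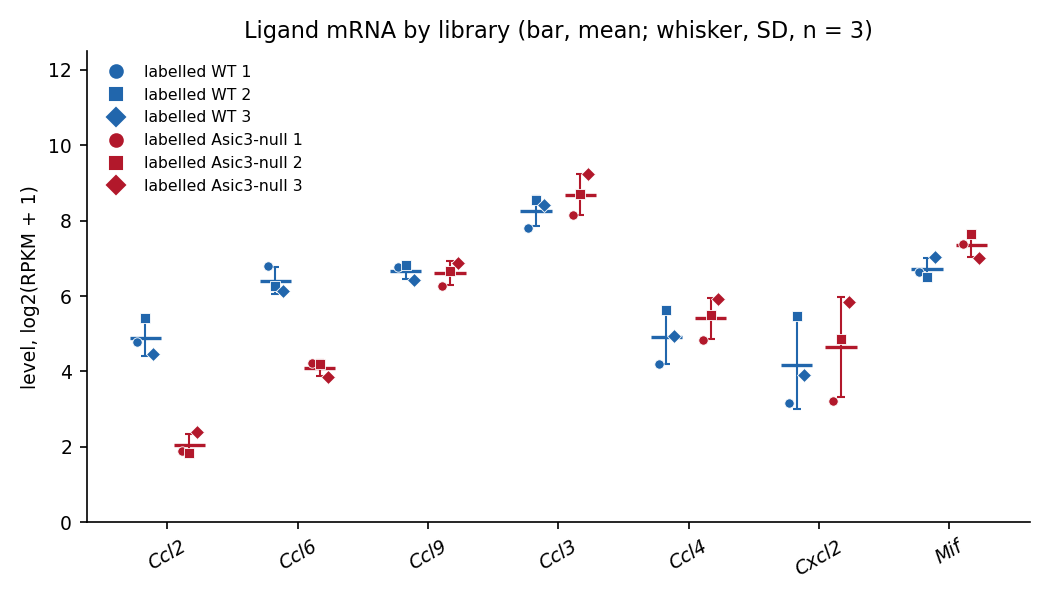
Levels of 7 ligand genes on the log2(RPKM + 1) axis, with 1 point per library, bars for the mean and whiskers for the SD of 3 libraries. Ccl2 and Ccl6 separate the groups with log2 fold changes of -2.84 and -2.32, while the groups of Ccl9, Ccl3, Ccl4, Cxcl2 and Mif overlap.

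The machinery downstream of these receptors was expressed in every library. All 25 listed signalling genes were tested, 4 were called lower and 0 higher, and the median log2 fold change was -0.23. Gnai2 and Gnb2, which encode a Gi alpha and a G protein beta subunit, had the highest levels, with means of 501 and 598 RPKM for Gnai2 and 388 and 453 RPKM for Gnb2 in Asic3-null-labelled and WT-labelled libraries, and were not called (adjusted p = 0.329 and 0.364 from limma). The called genes included Fgr, a Src-family kinase of myeloid cells, Pik3r5, a regulatory subunit of the Gi-activated PI3K gamma, and Gng2, a G protein gamma subunit. Their log2 fold changes were -2.32, -1.54 and -0.91, with adjusted p from limma of 0.00302, 0.0182 and 0.0281.

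Of 15 tested genes that switch receptors off, 1 was called. Grk5, a kinase that phosphorylates activated receptors, had 0.627 ± 0.509 and 4.74 ± 0.431 RPKM in Asic3-null-labelled and WT-labelled libraries (SD, n = 3 each, log2 fold change -1.86, adjusted p = 0.0103 from limma). Grk5 also reached the limit for testing only through the WT-labelled libraries, so under that filter it had to differ. Its adjusted p from limma with no filter on low values was 0.0225. The more abundant kinases Grk2, at 272 and 288 RPKM, and Grk6, at 113 and 143 RPKM, were not called (adjusted p = 0.745 and 0.336 from limma). Among 11 tested genes of marrow retention and adhesion 0 were called by limma at the adjusted threshold, and the median log2 fold change was -0.03. The highest of them were Cd47, which encodes a signal that protects cells from phagocytosis, at 352 and 322 RPKM, and the selectin ligand gene Selplg, at 144 and 199 RPKM. Over all tested genes 3.35% were called, so 0 of 11 or 1 of 15 does not set a list apart. The shares called were 22.2% of the other chemoattractant receptors, 25.0% of the ligands and 16.0% of the signalling genes. These shares rest on few genes, and their difference from all tested genes was not tested.

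Markers of differentiated myeloid cells moved with the called receptors. All 11 tested neutrophil markers were called lower in Asic3-null-labelled libraries, with a median log2 fold change of -3.46. The summed level of the 12 markers was 327 to 511 RPKM there and 4386 to 5336 RPKM in WT-labelled libraries. Ly6g, a defining surface marker, was at 0 in 5 of the 6 libraries and at 1.07 RPKM in the library labelled Asic3-null 1. Of 8 monocyte and macrophage markers, 5 were called lower (Csf1r, F13a1, Adgre1, Cd14 and Ms4a6c), and the list summed to 1277 to 1474 RPKM against 1904 to 2057 RPKM. Within the LIC list of 6 genes, Itgam was called lower and Meis1, a transcription factor gene of MLL-rearranged leukemia, was called higher (log2 fold change 0.91, adjusted p = 0.0367 from limma). The part of these cell states in the receptor differences was not tested.

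Markers of other lineages were low or did not separate the groups by call. Limma called 0 of 3 tested eosinophil, 0 of 2 basophil and mast cell, 0 of 2 NK cell, 0 of 1 B cell, 0 of 1 erythroid and 0 of 1 dendritic cell markers, and 1 of 2 megakaryocyte markers, Gp1bb, which was lower (log2 fold change -1.76). T cell and stromal markers were too low to be tested. Cd3e, Cd4, Cd8a, Ms4a1, Ncr1 and Klrb1c had 0 reads in all 6 libraries. B cell markers summed to 37.3 to 47.6 RPKM with the label Asic3-null and 42.04 to 49.996 RPKM with the label WT, nearly all of it Cd79b.

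For each tested receptor the 3 genes with the nearest profile over the 6 libraries were found, by the root mean square difference of log2(RPKM + 1) after centring each gene. For Cxcr4 these were Cav2, Nectin4 and Tifa, at 0.096, 0.124 and 0.131, of which Cav2 and Nectin4 were near the limit for testing. Ccr2 lay nearest to Samhd1, C9orf72 and Cybb, the last a subunit of the phagocyte NADPH oxidase, at 0.112, 0.112 and 0.123. The genes nearest to Ccr1 were Fblim1, Tmem268 and Lfng, at 0.107, 0.163 and 0.163. Ltb4r1 had Pi16, an unnamed gene and Gpx3 at 0.084, 0.087 and 0.102. Fpr2 had Klra2, Cstdc4 and Chil4 at 0.339, 0.343 and 0.358, so even its nearest profiles were less like it than those of the other receptors. The profiles of Fpr1, Cx3cr1 and Ccrl2, which rest on few reads, were nearest to Dubr, Wfs1 and Clec4a2, to Mdk, Cd9 and Alkbh3os1, and to Ropn1l, Nr4a1 and Mir704. These likenesses are over 6 libraries that also hold the difference between the groups.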

How the data were processed

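Total RNA came from sorted LICs, with 3 WT-labelled and 3 Asic3-null-labelled libraries, and groups and replicate numbers follow the labels. Per the submitters' processing notes, CASAVA 1.8.2 and TopHat2 2.0.12 were used with GRCm38. The authors deposited 1 table of RPKM values per gene. The counting tool and annotation are not given in the sources used here. Whole reads were recovered from the RPKM values for all 16825 genes above 0, within 0.0001 reads, and intervals from them cover counting error only. The median tested gene had 81 recovered reads in a library.

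Symbols and positions came from RefSeq GRCm38.p6, which gave 25275 of 27179 symbols. Genes with a mean of at least 1 RPKM were compared by limma 3.58.1 (R 4.3.3) on the log2(RPKM + 1) scale (empirical Bayes with intensity trend, Benjamini-Hochberg adjustment, threshold 0.05). Fold changes on this scale understate the change of low genes. Exact permutation tests were two-sided. Upstream windows are the 250 bases before each RefSeq start, with 11 windows for the 9 receptors. The genes named are the 9 receptors, Asic3, Itgam, Kit, the called and the 2 most abundant genes of each receptor, ligand and signalling list, and the 3 nearest profiles. Ccl9, Ackr3, S1pr1, Cxcl12, Ccl4 and Cxcl2, neighbouring genes and sex-linked and marker genes were chosen for naming once their values were seen. The receptors and lists were chosen with earlier results of these data known. The limma and read recovery steps were tested on simulated data. Python 3.11.15 with numpy 2.4.6, pandas 2.3.3 and scipy 1.17.1 did the rest. A few genes under the naming rule are not reported here.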

Additional observations from a re-analysis of the deposited data

How the results depend on the processing

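The count of tested genes called was 403, against 206 on untransformed RPKM, 246 with the replicate block and 543 with limma-voom on recovered reads, and it ran from 203 to 293 when each library was left out in turn. Leaving out any library but the one labelled WT 3 moved it by more than 1.5 times. Of the receptors, 4 were called, against 2 with no filter on low values, 2 without the intensity trend and 2 on untransformed RPKM, and from 1 to 3 over the libraries left out.

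The call of Ccr1 was lost with no filter (log2 fold change -1.39), without the intensity trend (-1.39) and on untransformed RPKM (a difference of -12.0 RPKM), and leaving out a library gave log2 fold changes from -1.66 to -1.09. That of Fpr2 was lost on untransformed RPKM (a difference of -14.6 RPKM), with a leave-one-out range from -3.18 to -2.39. That of Ltb4r1 was lost with no filter (-0.96), without the intensity trend (-0.96) and with the replicate block (-0.96), with a leave-one-out range from -1.11 to -0.74. The cause of these losses was not tested. Cxcr4 minus the mean of the other 8 differed between the groups by 1.58 with a pseudocount of 0.1. Adjusted p ran from 0.00271 to 0.0468 for Ccr2, 0.00462 to 0.0932 for Fpr2, 0.0172 to 0.174 for Ccr1 and 0.0132 to 0.101 for Ltb4r1 over the alternatives (limma), and scalings changed none of the 4 calls.

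The replicate numbers did not pair the samples. Deviations of same-numbered libraries correlated at 0.06, -0.06 and -0.12. The replicate block changed no call among the receptors but that of Ltb4r1. Fpr1 and Cxcr2 had 23 and 25 reads over all libraries, which left their read ratios with wide counting intervals. When 1 library is left out, the pooled spread stands in for the smaller group.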
